A study of Mus musculus with 18 samples.

Results

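The mitochondrial carriers of the Slc25 family were examined in mouse dorsal root ganglia (DRG), the ganglia that house the cell bodies of somatic sensory neurons. Members were taken by name, as every gene called Slc25a with a number, plus Ucp2 and Ucp3. Of 49 such genes among the 22021 listed, 43 reached 1 CPM (reads scaled to 1 common total per library) in at least 4 of 16 libraries and were tested among 14214 genes. The choice used names and this minimum level, not a difference between groups, but a member can reach the level through 1 fraction. Slc25a18 reached it in input libraries only. Slc25a21, Slc25a32 and Slc25a35 reached it in too few pulldowns to have been tested on those alone. Calls of these members as lower in the pulldown are thus favoured by the filter. The 6 that did not reach it were Slc25a2, Slc25a30, Slc25a31, Slc25a34, Slc25a41 and Slc25a54, each at 1 CPM or more in no more than 1 library.

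All mice carried Nav1.8cre on a C57BL/6J background together with the Rosa26fsTRAP allele, were aged 8 to 12 weeks, and were male and female littermates. Cre under the promoter of the sodium channel gene Scn10a (Nav1.8) switches on EGFP-L10a, a tagged ribosomal protein, so an anti-GFP pulldown (translating ribosome affinity purification, TRAP) recovers mRNA on ribosomes of Nav1.8-expressing neurons, which are mostly nociceptors. Biosamples 1 to 4 came from normal and biosamples 5 to 8 from paclitaxel-treated mice, and each gave an input and a TRAP library, which makes 4 groups of 4. Paclitaxel, a microtubule-stabilising chemotherapy drug that can cause painful neuropathy, was injected intraperitoneally at 4 mg/kg every other day, 4 times within 8 days, for a total of 16 mg/kg. Input is the whole detergent-treated ganglion extract after centrifugation at 15000 x g, and the pulldown was made from the same extract, which the labels call post-mitochondrial. Biosample 7 consisted of 2 subsamples, averaged here. The labels do not state the number of animals per biosample, their sex, or whether the normal mice received vehicle. P-values of paclitaxel against normal within a fraction thus measure the spread between these biosamples. Those of comparisons that pair input with TRAP measure the spread of the TRAP minus input change among them.

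Slc25 proteins form the largest family of solute transporters of the inner mitochondrial membrane. They are encoded in the nucleus, made on cytosolic ribosomes, and inserted into the membrane through the TIM22 complex with the help of small chaperones between the membranes. Each moves a small molecule that the bilayer would otherwise hold back, such as ADP and ATP, phosphate, amino acids, carboxylates, nucleotides or cofactors. Axons of sensory neurons depend on mitochondrial ATP, and mitochondria of these axons are a recognised target of paclitaxel neuropathy.

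Between treatments, Slc25a3 passed the threshold given below in the pulldown and Slc25a43 in the input, though neither call held under every alternative run. The sequences before their starts are shown for orientation. Both come from RefSeq (GRCm38.p6), 5′ to 3′ on the gene's strand, and end at or before the first base of the gene. They were searched on both strands for 4 motifs, CCAAT (the CCAAT box), TATAAA (the TATA box), GGGCGG (the GC box) and TGACGTCA (the cAMP response element), and capitals mark matches.
Slc25a3, chr10:91124060-91124217, minus strand: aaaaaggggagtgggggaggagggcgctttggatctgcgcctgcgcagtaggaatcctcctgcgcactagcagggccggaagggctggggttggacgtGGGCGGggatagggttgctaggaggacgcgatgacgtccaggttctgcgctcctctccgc
Slc25a43, chrX:36743382-36743631, plus strand: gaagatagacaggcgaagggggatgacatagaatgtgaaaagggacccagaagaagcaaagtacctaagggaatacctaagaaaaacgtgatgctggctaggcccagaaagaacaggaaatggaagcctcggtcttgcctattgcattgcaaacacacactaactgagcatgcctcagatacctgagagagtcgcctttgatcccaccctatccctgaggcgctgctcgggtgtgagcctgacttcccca
The 158 bases shown for Slc25a3 hold 1 GC box and 65.2% G or C. The 250 bases of Slc25a43 hold no match and 50.8% G or C. In windows of 250 bases, the GC box was found in 30 of the 44 promoters listed for 34 member genes (68.2%) and in 32.7% of all 32851 promoters. CCAAT was in 19 of 44 (43.2%) and in 33.8% of all, TATAAA in 2 of 44 (4.55%) and 12.4%, and TGACGTCA in 2 of 44 (4.55%) and 1.55%. Promoters of 1 gene can overlap. A match is a string of letters, not evidence that a factor binds.

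Reads over the listed genes, estimated from the step that 1 read makes in the values, came to 4266010 to 14478020 in the input and 5972331 to 32713503 in the pulldown libraries, which puts the floor of 3 reads at 0.0917 to 0.703 CPM. The stricter check for whole reads did not pass for every library, so these totals and floors are estimates. The pulldowns of biosamples 1, 2, 5 and 6 reached 1 CPM in 9715 to 10884 genes and those of biosamples 3, 4, 7 and 8 in 11897 to 13228. The nociceptor label held for the summed level of 10 nociceptor markers (4495 to 7637 CPM in input and 8790 to 11612 in TRAP), with 3 of 10 passing higher and 2 lower in normal TRAP and 7 higher after paclitaxel. Scn10a averaged 666 CPM in normal and 562 CPM in paclitaxel input, and 1002 CPM in normal and 1405 CPM in paclitaxel pulldowns. Its normal inputs (443 to 1013 CPM) and pulldowns (567 to 1387 CPM) overlapped. Its paclitaxel inputs (472 to 647 CPM) and pulldowns (989 to 1633 CPM) did not. Markers of Schwann cells were still at 1969 to 3141 CPM in TRAP, against 5943 to 10606 in input, and those of satellite glia at 511 to 1155 against 1137 to 2825, so the pulldown is an enrichment and not a pure population. In bulk extracts, fewer cells of a type and less RNA per cell cannot be told apart.

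A few carriers made up most of the mRNA of the 43 members. Reads came from 3′ ends, 1 site per transcript, so CPM can be set side by side between genes without division by length. In normal input, Slc25a51, which brings NAD+ into mitochondria, averaged 719 ± 552 CPM (SD, n = 4) and Slc25a4 (ANT1), the ADP/ATP exchanger of muscle and nerve, 705 ± 219 CPM. These 2 held 48.3% of the summed carrier level. Next came the phosphate carrier Slc25a3 at 210 ± 64.6 CPM, the pyrimidine nucleotide carrier Slc25a36 at 200 ± 65.7 CPM and the iron importer Slc25a37 (mitoferrin 1) at 171 ± 78.6 CPM. The spreads of Slc25a51 and Slc25a4 overlapped, as did those of these last 3. In normal TRAP, Slc25a4 alone stood at 869 ± 221 CPM, 41.7% of the carrier sum, ahead of Slc25a51 at 222 ± 189 CPM.

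**Figure D1:**
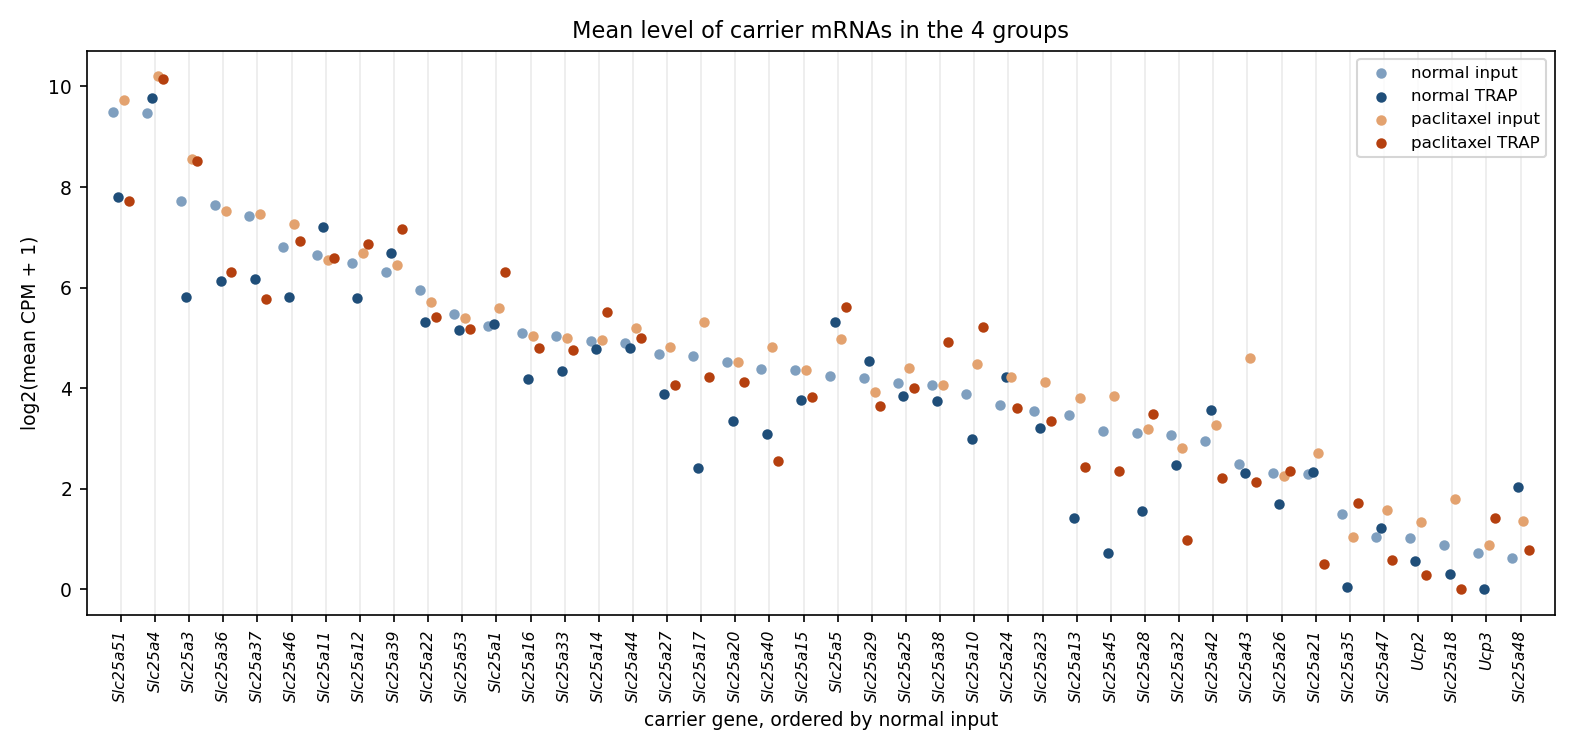
Mean level of 42 of the 43 carrier mRNAs, as log2(mean CPM + 1), in the 4 groups of 4 biosamples, ordered by normal input. Slc25a51, Slc25a4 and Slc25a3 lead in normal input, and only 4 carriers average 100 CPM or more in normal TRAP.

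At least 100 CPM on average was reached by 6 carriers in normal input, 4 in normal TRAP, 7 in paclitaxel input and 6 in paclitaxel TRAP. At the other end, 13, 18, 11 and 15 averaged under 10 CPM. Summed over the 43 genes, the level was 2535 to 3591 CPM in normal input and 1817 to 2402 CPM in normal TRAP, groups that did not overlap. It was 3287 to 4314 CPM in paclitaxel input and 2607 to 3309 CPM in paclitaxel TRAP, which overlapped by 1 library each. For comparison, the 13 mRNAs encoded by mitochondrial DNA summed to 3817 to 10884 CPM in normal and 10118 to 21682 CPM in paclitaxel input, and to 563 to 861 and 986 to 4137 CPM in the pulldowns. Their part in any carrier result was not tested.

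Altogether 5 comparisons were made, each on log2(CPM + 1) with limma over all genes, and the threshold was 0.05 on p-values adjusted by Benjamini-Hochberg. Fold changes on this scale understate those of genes near 1 CPM. The first asked which carriers the tagged ribosomes held relative to the extract of the same biosample. In normal mice 13 of 43 members (30.2%) were lower in TRAP and 0 were higher, while 29.8% of all genes passed, 24.7% lower and 5.09% higher, so the share was near the background. At an unadjusted p under 0.05, 2 members were higher and 16 lower. No share of all genes is given for unadjusted counts, here or below, so no trend of the carriers is read from them. The median log2 change was -0.69 for the members and -0.66 for all genes.

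After paclitaxel, 9 members were lower in TRAP than in input and 1 was higher (23.3%), against 27.9% of all genes (23% lower, 4.92% higher). Among these 9 is Slc25a18, which met the minimum level through inputs alone. The medians were -0.57 and -0.56. The 5 members lower in both treatments were Slc25a36, Slc25a37, Slc25a40, Slc25a45 and Slc25a51. Of these, Slc25a36, Slc25a37 and Slc25a51 passed in both treatments under all 18 alternatives run, while the normal call of Slc25a40 passed in 6 of 18 and the paclitaxel call of Slc25a45 in 7 of 18. Passing in 1 treatment alone does not show a difference between treatments, which was tested in its own right below. Scaling mattered for the split: with median-ratio scaling, which moves the all-gene medians from -0.66 to -0.32 and from -0.56 to -0.28, the counts were 3 higher and 7 lower in normal mice and 2 and 7 after paclitaxel. With quantile normalization, which moves these medians to 0 and 0.04, they were 3 and 5, and 2 and 5. In normal mice 2695 of all genes passed with quantile normalization, against 4233 at the main settings. How all genes split by direction under either scaling is not given, so these member counts have no background. Slc25a5 and Slc25a11 were higher in normal mice under both scalings, joined by Slc25a4 under the first (0.76) and Slc25a48 under the second (1.45). After paclitaxel the members higher under both scalings were Slc25a39 and Slc25a1. Slc25a1 was higher by 0.95 (adjusted p = 0.0246) and 0.87 (adjusted p = 0.0271), against 0.64 (adjusted p = 0.104) at the main settings. Its highest paclitaxel pulldown, biosample 7 at 135 CPM, is a mean of unlike subsamples, 195 and 76.1 CPM.

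The second question was what differed after paclitaxel. In TRAP, 1 of 43 members (2.3%) was higher and 0 lower (Slc25a3), against 1.82% of all genes (1.33% higher, 0.492% lower). In input 1 (2.3%) was higher and 0 lower (Slc25a43), against 1.64% (1.46% higher, 0.183% lower). Both shares were near the background. At an unadjusted p under 0.05 the counts were 7 higher and 1 lower in TRAP and 8 and 0 in input, with no share of all genes to set beside them. Member medians were 0.30 and 0.32 beside 0.17 and 0.14 for all genes. The third, whether TRAP minus input differed between treatments, was passed by 1 member, higher (Slc25a3), and by 0.19% of all genes (27 genes, 0.162% higher and 0.0281% lower). At an unadjusted p under 0.05 it was 4 higher and 2 lower, and the member median was -0.01. The 3 treatment comparisons share libraries with each other and with the pulldown comparisons.

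**Figure D2:**
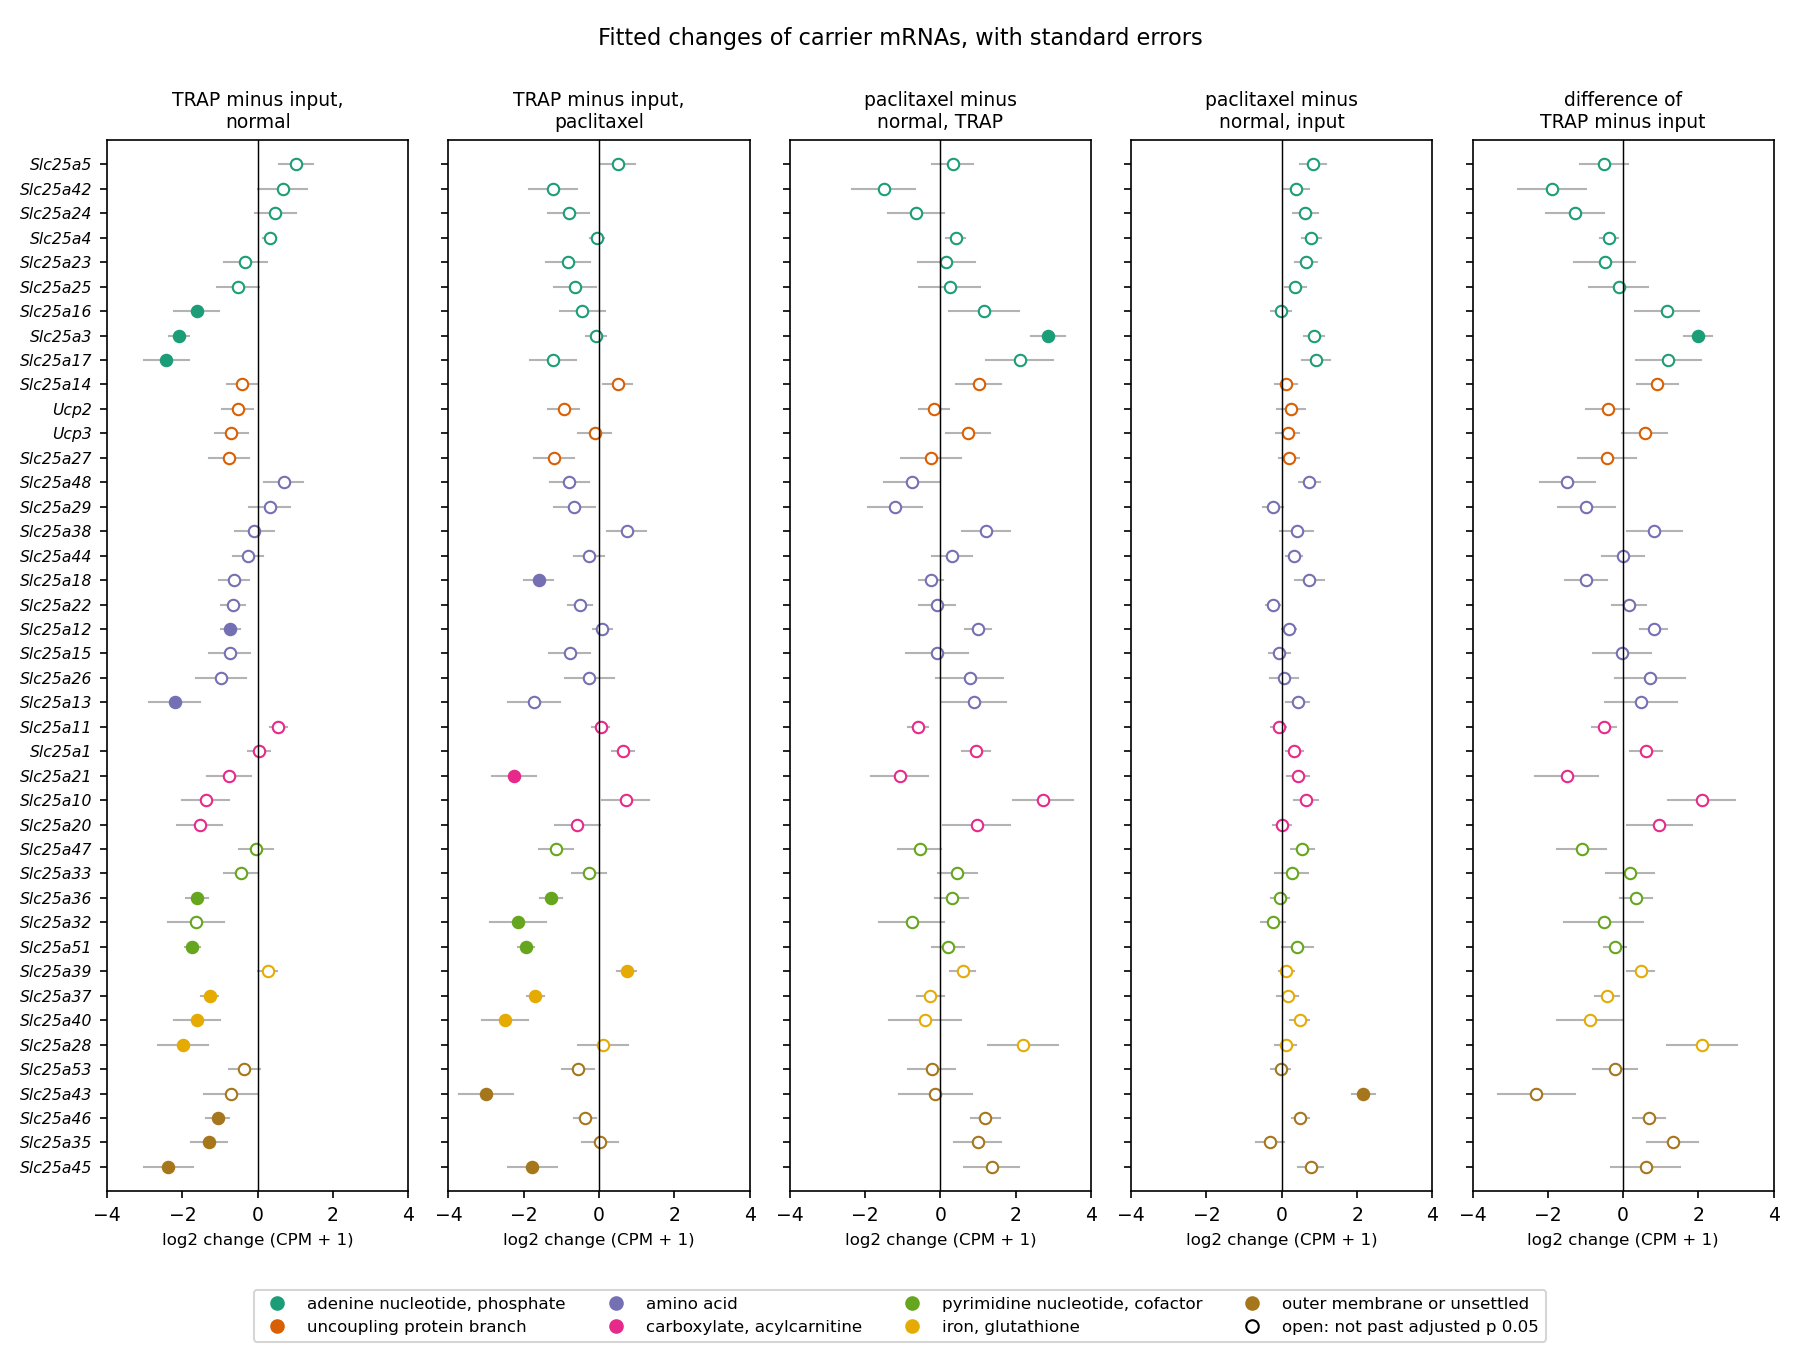
Fitted log2 change (CPM + 1) of 42 of the 43 carrier mRNAs in the 5 comparisons, with bars for the standard error, grouped by substrate. Filled points passed an adjusted p of 0.05: 13 and 10 in the pulldown comparisons and 1 in each of the other 3.

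In the substrate groups that follow, counts in the pulldown comparisons stand beside 24.7% of all genes lower and 5.09% higher in normal mice and 23% and 4.92% after paclitaxel, and nothing particular to a group is read from them. The carriers of adenine nucleotides and phosphate supply the ATP synthase. Among the 9 tested, 3 were lower in normal TRAP, and 0 passed in paclitaxel TRAP against input (limma, 0 also at an unadjusted p under 0.05). Slc25a3 alone passed in the treatment comparisons. At an unadjusted p under 0.05, 5 were higher in paclitaxel input and 2 in paclitaxel TRAP. For the treatment difference it was 1 higher and 1 lower. Slc25a3 (ENSMUSG00000061904.12, GRCm38 chromosome 10, 91116574 to 91124059, minus strand) imports the phosphate that is joined to ADP. Its normal inputs held 189, 275, 248 and 130 CPM and the matching normal TRAP libraries 16.2, 65.4, 86.1 and 52.6 CPM. Every normal pulldown thus lay below every normal input. The paclitaxel inputs held 309, 274, 512 and 417 CPM, and the paclitaxel TRAP libraries 217, 350, 580 and 324 CPM. Here pulldown and input overlapped, with TRAP higher in 2 of 4 biosamples.

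In normal mice Slc25a3 was lower in TRAP by -2.08 on the log2 scale (limma, SE 0.265, adjusted p = 7.1e-06), and this call held under all 18 alternative settings run, with adjusted p-values up to 0.00365. After paclitaxel the change was -0.08 (adjusted p = 0.837). The 4 paclitaxel TRAP libraries were all above the 4 normal ones, by 2.85 (SE 0.450, limma adjusted p = 0.0135), from 55 ± 29.4 to 368 ± 153 CPM (SD, n = 4). In input the difference was 0.86 (SE 0.265, adjusted p = 0.11), with 1 paclitaxel input just under the highest normal one. Without biosample 2 it passed in input as well (1.00, adjusted p = 0.0421), in a run where 831 of all genes passed, against 233 at the main settings. The treatment difference of TRAP minus input was 2.00 (SE 0.374, adjusted p = 0.0197) with biosample as a block, and its adjusted p was 0.591 with no replicate block.

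The 2 treatment calls of Slc25a3 kept their sign but not always their side of the threshold. The TRAP difference passed in 12 of 17 alternatives and not without biosample 2 (adjusted p = 0.0662), 7 (0.0814) or 8 (0.118). The difference between treatments passed in 7 of 18 and not without biosample 2, 5, 6, 7 or 8 (0.0587 to 0.159). Without biosamples 1, 2, 5 and 6, whose pulldowns held the fewest genes, the 2 values were 2.67 (adjusted p = 0.417) and 1.31 (adjusted p = 0.139). The subsamples of biosample 7 were close to each other for Slc25a3, at 583 and 578 CPM in TRAP and 499 and 525 CPM in input. No other gene of the GENCODE vM21 annotation overlaps the last 500 bases of Slc25a3.

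Slc25a4 and Slc25a5 (ANT2) exchange ADP for ATP across the inner membrane, and Slc25a5 is the form of dividing cells. Slc25a4 held 457, 940, 829 and 595 CPM in the normal inputs and 773, 873, 1173 and 657 CPM in normal TRAP. It held 1207, 1066, 1151 and 1277 CPM in the paclitaxel inputs and 1041, 990, 1218 and 1304 CPM in paclitaxel TRAP. Slc25a4 was the leading carrier in all but the normal input group, and its 4 paclitaxel inputs were above its 4 normal inputs. That difference was 0.79 (SE 0.245, limma adjusted p = 0.11) and did not pass, though it did without biosample 2 (0.95, adjusted p = 0.0338), as did 831 of all genes. TRAP minus input was 0.32 (adjusted p = 0.16) in normal mice, and -0.05 (adjusted p = 0.845) after paclitaxel.

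Slc25a5 held 8.35, 31.2, 18.9 and 13.1 CPM in the normal inputs and 70.8, 38.7, 31.2 and 14.9 CPM in the matching TRAP libraries. After paclitaxel it held 26.4, 21.4, 42.6 and 31.4 CPM in input and 17.4, 67.4, 67.7 and 40.6 CPM in TRAP. The pulldown was above its own input in 4 of 4 normal biosamples and in 3 of 4 after paclitaxel, but the groups overlapped. The normal change was 1.03 (SE 0.450, adjusted p = 0.084), and it passed with median-ratio scaling (1.45, adjusted p = 0.025) and quantile normalization (1.47, adjusted p = 0.0202). Slc25a4 exceeded Slc25a5 by 10.9 to 60 times across the 16 libraries. Slc25a5 has processed copies in the genome, and how reads shared with them were counted is not stated, so its level is uncertain.

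**Figure D3:**
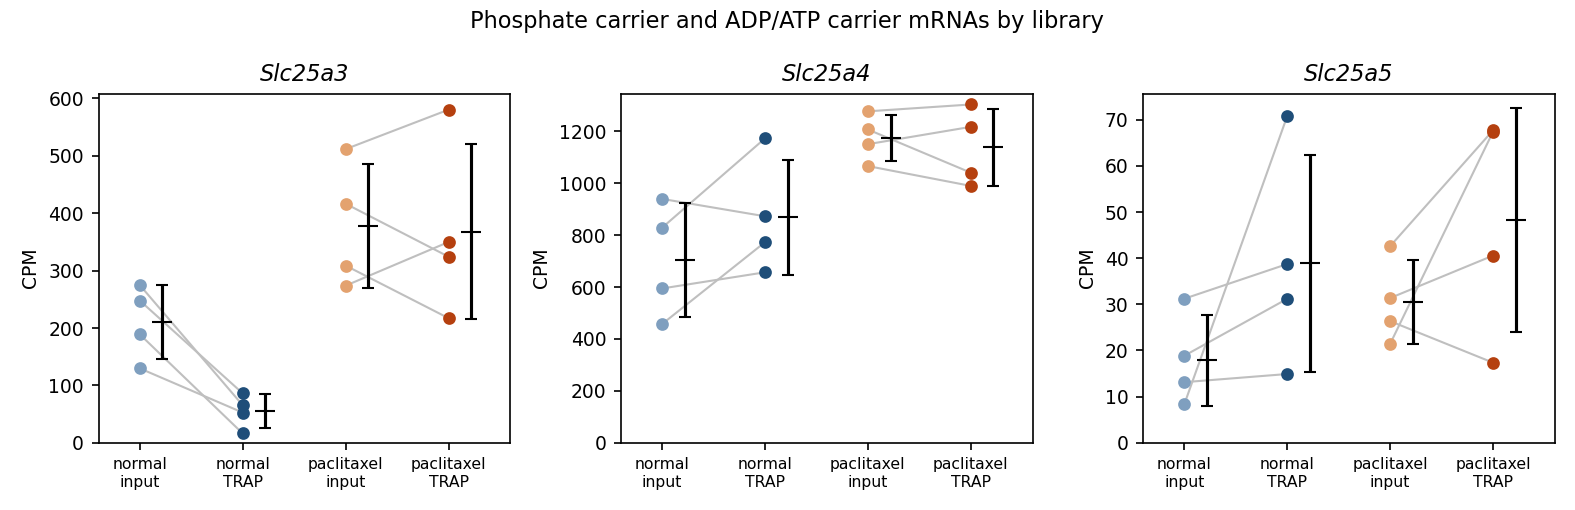
CPM of Slc25a3, Slc25a4 and Slc25a5 in each biosample, with grey lines joining input and TRAP of 1 biosample and black marks for mean and SD (n = 4). The normal TRAP libraries of Slc25a3 lie at 16.2 to 86.1 CPM, under all other groups, while Slc25a4 is high in all 4.

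In the same group, Slc25a17, a peroxisomal carrier of adenine nucleotides and cofactors, was lower in normal TRAP by -2.42 (adjusted p = 0.00509), and Slc25a16, linked to coenzyme A transport, by -1.61 (adjusted p = 0.0443). Slc25a17 ran from 9.38 to 48.2 CPM in normal input and from 0.86 to 11.6 CPM in TRAP, and its change without biosample 2 was -1.66 (adjusted p = 0.0512). Slc25a16 ran from 20.4 to 46 CPM and from 0.5 to 37.5 CPM, and without biosample 1, whose pulldown held 0.5 CPM, its change was -0.49 (adjusted p = 0.487). The calcium-regulated ATP-Mg/phosphate carriers Slc25a23, Slc25a24 and Slc25a25 and the coenzyme A carrier Slc25a42 passed in none of the 5 comparisons.

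The amino acid carriers feed the malate-aspartate shuttle, glutamate oxidation, and the urea-cycle, glycine and branched-chain pathways. Of 10 tested, 2 were lower in normal TRAP, 1 was lower in paclitaxel TRAP, and 0 passed in the 3 treatment comparisons (limma, unadjusted p under 0.05 for 1 member, higher, in each comparison). Slc25a12 (aralar) is the aspartate/glutamate carrier of neurons and muscle. Its normal inputs held 79.9, 101, 85.7 and 90.7 CPM and its normal TRAP libraries 45.7, 52.5, 77.2 and 43.9 CPM. The pulldown was below the input in 4 of 4 normal biosamples, with no overlap, by -0.72 (SE 0.254, limma adjusted p = 0.0346). After paclitaxel Slc25a12 held 89.7, 91.2, 119 and 107 CPM in input and 108, 65.7, 196 and 97 CPM in TRAP, a change of 0.09 (adjusted p = 0.812). The difference between treatments, 0.82, did not pass (adjusted p = 0.386). The normal call was kept in 9 of 18 alternatives and lost with both other scalings, at -0.29 (adjusted p = 0.436) and -0.45 (adjusted p = 0.207), and without biosample 1, 2 or 4 (0.0874 to 0.111).

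Slc25a13 (citrin), the other aspartate/glutamate carrier and the main form in liver, was lower in normal TRAP by -2.21 (adjusted p = 0.0183), at 4.86 to 13.4 CPM in input and 0.15 to 4.24 CPM in TRAP, but not without biosample 1 (-1.73, adjusted p = 0.115) or 4 (-2.16, adjusted p = 0.0533). After paclitaxel its 4 pulldowns, at 0.13 to 7.56 CPM, were again below the 4 inputs, at 12.1 to 14.2 CPM, with an adjusted p of 0.0597. Slc25a22 and Slc25a18 import glutamate with protons. Slc25a22 held 74.2, 53.5, 64.7 and 53 CPM in normal input, 47.8, 36.1, 40.9 and 30 CPM in normal TRAP, 55.3, 55.9, 46.7 and 49 CPM in paclitaxel input and 56.4, 65.9, 14 and 31.5 CPM in paclitaxel TRAP. Its normal groups did not overlap, but the change of -0.66 did not pass (adjusted p = 0.123). Slc25a18 was scarce and was listed at 0 CPM in all 4 paclitaxel pulldowns, against 0.41, 2.18, 5.1 and 2.14 CPM in the inputs (limma adjusted p = 0.00519). It is a low-level call of a gene that reached 1 CPM in input libraries only, so the filter favoured its direction and nothing is built on it. The end of Slc25a18 overlaps Atp6v1e1 on the opposite strand.

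The carboxylate carriers exchange citrate, malate, succinate and oxoglutarate, and Slc25a20 brings in acylcarnitine for fat oxidation. Of 5 tested, 1 passed, lower in paclitaxel TRAP: Slc25a21, the oxodicarboxylate carrier, by -2.26 (adjusted p = 0.00772), from 4.13 to 7.8 CPM in input to 0 to 1.33 CPM in TRAP. Its end overlaps Pax9 on the opposite strand. Slc25a11, the oxoglutarate carrier, was the most abundant of the group at 99.6 ± 22.6 CPM in normal input and 147 ± 35.7 CPM in normal TRAP. It was above its input in 4 of 4 normal pulldowns but did not pass (0.55, adjusted p = 0.0576), except with the 2 other scalings (0.99 and 0.70). Slc25a10, which exchanges succinate and malate for phosphate, held 0.72 to 13.5 CPM in normal TRAP and 25.8 to 54.3 CPM in paclitaxel TRAP, with no overlap. The difference of 2.73 did not pass (adjusted p = 0.0951), except over genes of at least 5 CPM in 4 libraries (adjusted p = 0.0318).

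In the uncoupling protein branch, which includes carriers that can dissipate the proton gradient, 4 were tested and 0 passed in any comparison (limma; at an unadjusted p under 0.05, 2 were lower in paclitaxel TRAP and 0 in the other comparisons). Ucp2 was near the floor, with 1.11, 0.71, 0.41 and 1.88 CPM in normal input, 0.2, 0.04, 0 and 1.67 CPM in normal TRAP, 2.86, 1.7, 0.145 and 1.38 CPM in paclitaxel input and 0.07, 0, 0.33 and 0.47 CPM in paclitaxel TRAP. The paclitaxel inputs of biosamples 5 and 6 stood above the floors of their libraries, 0.306 and 0.242 CPM, and their pulldowns below theirs. TRAP minus input after paclitaxel was -0.94 (adjusted p = 0.083), and it passed with subsample 1 of biosample 7 alone (-1.04, adjusted p = 0.043) and without biosample 7 (-1.33, adjusted p = 0.0464). The end of Ucp2 overlaps Dnajb13 on the opposite strand. Slc25a14 and Slc25a27, the forms known from brain, were the more abundant at means of 29.6 and 24.8 CPM in normal input. Ucp1, the uncoupler of brown fat and not a member here, averaged 22 CPM in normal and 49.4 CPM in paclitaxel input but 0.818 and 11.4 CPM in the pulldowns. Of 10 markers of muscle and brown fat, which border the ganglia, 7 and 8 were lower in the normal and paclitaxel pulldowns, and their summed level in input was 293 to 1638 CPM in normal and 840 to 1275 CPM in paclitaxel. Their part in carrier levels of the input, Slc25a4 included, was not tested.

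The carriers of pyrimidine nucleotides and cofactors held several differences that passed under every setting run. Of 6 tested, 2 were lower in normal TRAP and 3 in paclitaxel TRAP, and 0 passed in the treatment comparisons (limma, 0 also at an unadjusted p under 0.05). Slc25a51 held 583, 469, 297 and 1529 CPM in normal input and 127, 156, 100 and 504 CPM in the matching pulldowns. After paclitaxel it held 557, 539, 1150 and 1132 CPM in input and 157, 229, 177 and 277 CPM in TRAP. In every biosample the pulldown was below its own input, although the biosamples differed widely from each other. The changes were -1.73 (SE 0.207, adjusted p = 3.26e-06) and -1.94 (SE 0.207, adjusted p = 1.31e-06).

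Slc25a36, which exchanges pyrimidine nucleotides for mitochondrial DNA and RNA, held 206, 106, 229 and 257 CPM in normal input and 23.3, 70.9, 83.8 and 99.5 CPM in normal TRAP. After paclitaxel it held 176, 200, 169 and 189 CPM in input and 79.3, 46.9, 85.8 and 102 CPM in TRAP. Neither pair of groups overlapped. Slc25a36 was lower by -1.62 (SE 0.297, adjusted p = 0.000383) and -1.27 (SE 0.297, adjusted p = 0.00374). Slc25a32, a carrier of folate or flavin, was lower in paclitaxel TRAP by -2.15 (adjusted p = 0.0335), at 3.37 to 7.16 CPM in input and 0 to 3.78 CPM in TRAP. In biosample 8 the pulldown, at 3.78 CPM, was above its input, at 3.37 CPM. The call passed in 10 of 18 alternatives and not without biosample 5, 6 or 7 (0.131 to 0.134), with either other scaling (-1.88, adjusted p = 0.0608, and -0.67, adjusted p = 0.455), with a pseudocount of 5 or with no filter. Slc25a33, the other pyrimidine nucleotide carrier, did not pass.

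Iron and glutathione are handled by 4 members, of which 3 were lower in normal TRAP, and 2 lower and 1 higher in paclitaxel TRAP, while 0 passed between treatments (limma, unadjusted p under 0.05 for 1 member, higher, in TRAP, 0 in input and 1, higher, for the difference between treatments). Slc25a37, the iron importer prominent in developing red cells, held 208, 100, 112 and 264 CPM in normal input and 68.7, 41.3, 48.9 and 124 CPM in TRAP. After paclitaxel it held 182, 187, 190 and 148 CPM in input and 57.3, 48.4, 51.4 and 57.6 CPM in TRAP. Each pulldown was below its own input, by -1.27 (SE 0.225, adjusted p = 0.000258) and -1.70 (SE 0.225, adjusted p = 1.88e-05). Of 7 erythroid markers, 3 and 7 were lower in the 2 pulldowns, and their summed level was 856 to 1200 CPM in normal input, 1623 to 3747 CPM in paclitaxel input, 207 to 659 CPM in normal TRAP and 323 to 975 CPM in paclitaxel TRAP. Their part in Slc25a37 was not tested, and Slc25a37 did not pass between the inputs (0.16, adjusted p = 0.802).

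Slc25a39, the glutathione importer, held 65.7, 82.3, 87.7 and 78.3 CPM in normal input and 79.4, 159, 122 and 50.7 CPM in normal TRAP. After paclitaxel it held 67.9, 72.4, 106 and 100 CPM in input and 143, 144, 144 and 137 CPM in TRAP, and the pulldown was above its input in 4 of 4 biosamples, with no overlap. At the main settings it was the 1 member that passed higher in a pulldown, by 0.74 (SE 0.254, adjusted p = 0.0339). The value of biosample 7 is a mean of unlike subsamples, 104 and 185 CPM. The call was not kept with subsample 1 alone (0.63, adjusted p = 0.106) or without biosample 5, 6 or 7 (0.0558 to 0.157), and the difference between treatments was 0.47 (adjusted p = 0.659). Its relative Slc25a40 went the other way, lower by -1.62 (adjusted p = 0.0485) in normal and -2.50 (adjusted p = 0.00505) in paclitaxel TRAP, where it held 1.8 to 9.74 CPM against 25.3 to 29.3 CPM in input. The normal call of Slc25a40 was lost in 12 of 18 alternatives, among them those without biosample 2 (-1.13, adjusted p = 0.201), 3, 4, 7 or 8 and quantile normalization (-0.85, adjusted p = 0.241). Slc25a28 (mitoferrin 2) was lower in normal TRAP by -1.98 (adjusted p = 0.0285), at 4.86 to 10.3 CPM in input and 0 to 6.2 CPM in TRAP. That call was lost in 8 of 18 alternatives, among them those without biosample 1, 2 or 3 (0.0622 to 0.156) and quantile normalization (-0.79, adjusted p = 0.348). After paclitaxel the change of Slc25a28 was 0.11 (adjusted p = 0.912), with TRAP above input in 3 of 4 biosamples, and the difference between treatments, 2.09, did not pass (adjusted p = 0.397).

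**Figure D4:**
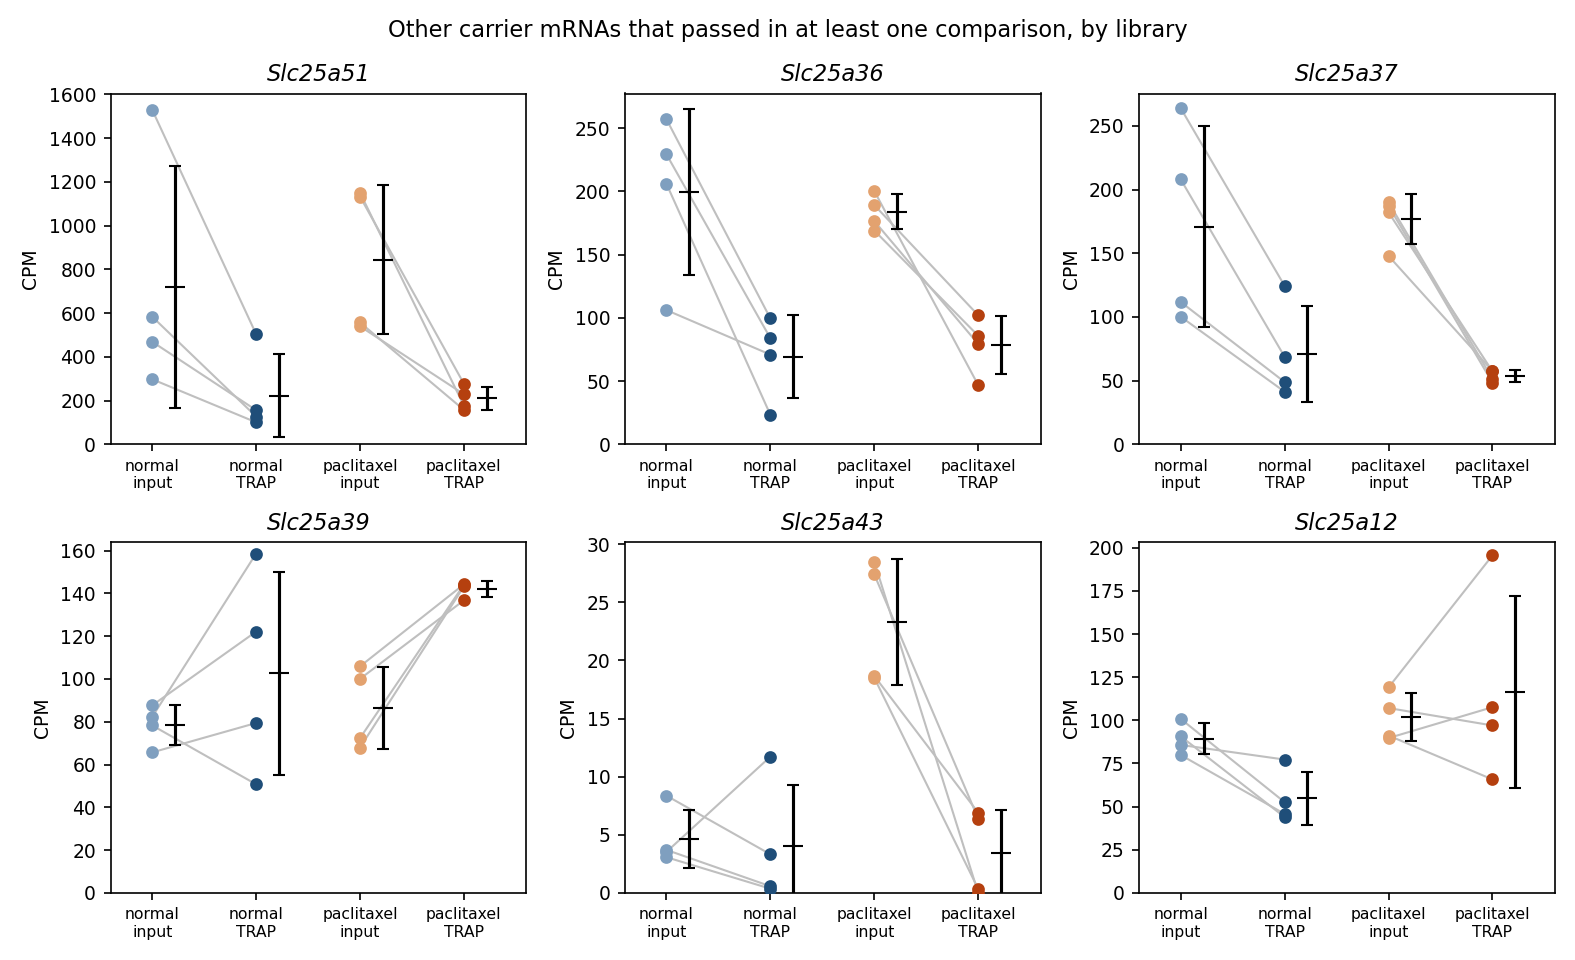
CPM of 6 further carriers by biosample, with grey lines joining input and TRAP of 1 biosample and black marks for mean and SD (n = 4, cut off at 0). Slc25a51, Slc25a36 and Slc25a37 fall from input to TRAP in every biosample, Slc25a39 rises in the paclitaxel biosamples, and the paclitaxel inputs of Slc25a43 lie at 18.5 to 28.5 CPM above all other groups.

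The last group holds members of the outer membrane or with an unsettled substrate. Of 5 tested, 3 were lower in normal and 2 in paclitaxel TRAP, and 1 passed between the inputs. Slc25a43 (ENSMUSG00000037636.6, chromosome X, 36743659 to 36777202, plus strand), an orphan carrier next to Slc25a5 on the X chromosome, held 3.06, 3.69, 8.36 and 3.52 CPM in normal input and 28.5, 18.5, 27.4 and 18.7 CPM in paclitaxel input. The 4 paclitaxel inputs were all above the 4 normal ones, by 2.16 (SE 0.308, limma adjusted p = 0.00841). In TRAP it held 0.35, 0.56, 3.31 and 11.7 CPM in normal and 0, 0.34, 6.39 and 6.9 CPM in paclitaxel libraries, a difference that did not pass (-0.14, adjusted p = 0.965). After paclitaxel it was lower in TRAP than in input, by -3.00 (SE 0.723, adjusted p = 0.00451), and the difference between treatments was -2.30 (SE 1.02, adjusted p = 0.39).

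The input call of Slc25a43 did not pass without biosample 1 (adjusted p = 0.0515) or 7 (0.0646), nor without biosamples 1, 2, 5 and 6 (1.86, adjusted p = 0.0674). The subsamples of biosample 7 differed, at 16.5 and 38.3 CPM in input and 0 and 12.8 CPM in TRAP. A small nucleolar RNA lies within the last 500 bases of Slc25a43 on its strand. Some markers of other cells also passed higher in paclitaxel than normal input. Among 10 Schwann cell, 8 fibroblast, 8 macrophage and 10 nociceptor markers 0 passed (medians 0.27, 0.48, 0.41 and -0.36). Of 7 erythroid markers 2 passed, Hba-a1 by 2.51 and Hbb-bs by 2.45, with a list median of 0.86, and their summed level, given above with Slc25a37, did not overlap between the inputs. Of 10 satellite glia markers 2 passed, Fabp7 by 1.99 and Slc1a3 by 1.69 (median 0.47), and the sums, 1137 to 2825 CPM in normal and 1928 to 2743 CPM in paclitaxel input, overlapped. Adipoq passed among 10 markers of muscle and brown fat (1.48, median 1.04) and Kdr among 8 endothelial markers (0.91, median 0.18). Of 11 tested mRNAs of mitochondrial DNA 3 passed, mt-Nd2, mt-Atp8 and mt-Cytb (median 0.98), beside 1.46% of all genes higher and a median of 0.14. Their part in Slc25a43 was not tested.

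Slc25a46, an outer membrane protein of mitochondrial fission whose loss causes optic atrophy and axonal neuropathy, was lower in normal TRAP by -1.06 (adjusted p = 0.0112), at 77.6 to 161 CPM in input and 24.9 to 75.1 CPM in TRAP. After paclitaxel the change was -0.37 (adjusted p = 0.369). Without biosample 2 the normal change was -0.54 (adjusted p = 0.128). Slc25a45 was lower in both treatments, by -2.37 (adjusted p = 0.00936) and -1.77 (adjusted p = 0.0441), with TRAP below input in all 8 biosamples. The normal call was lost without biosample 1 (-2.12, adjusted p = 0.0528) and with quantile normalization (-1.12, adjusted p = 0.154). The paclitaxel call was lost in 11 of 18 alternatives, among them those without biosample 3, 4, 6, 7 or 8 (0.0524 to 0.248) and quantile normalization (-0.80, adjusted p = 0.305). Slc25a35, near the floor at 0 to 0.11 CPM in normal TRAP, was lower by -1.29 (adjusted p = 0.0466). That call passed in 4 of 17 alternatives and was lost without biosample 1, 2, 3, 7 or 8 (0.0507 to 0.175) and with quantile normalization (-0.19, adjusted p = 0.803).

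The machinery and enzymes around the carriers were read from lists of genes. A list of 15 gene entries, with Timm10b entered 2 times under the same name, covered protein import or insertion into mitochondrial membranes. Of these, 4 were higher and 4 lower in normal TRAP and 2 were higher after paclitaxel, with median changes of -0.39 and 0.21. Mtch1 and Mtch2, which the naming rule of the members did not take in, are on this list. Both were among those higher in normal TRAP, Mtch2 by 0.75 (adjusted p = 0.00883). The same over all genes was 5.09% higher and 24.7% lower in normal TRAP and 4.92% higher and 23% lower after paclitaxel, with medians of -0.66 and -0.56. Timm13, a small chaperone of carrier precursors, was higher in both, by 0.79 (adjusted p = 0.00931) and 0.81 (adjusted p = 0.0078), and Mtch1, an outer membrane insertase, by 0.77 (adjusted p = 0.00554) and 1.00 (adjusted p = 0.00102). Timm8b, a chaperone of the same space, was lower in normal TRAP by -1.72 (adjusted p = 0.0124), with averages of 48.3 CPM (input) and 13.1 CPM (TRAP). It was higher in paclitaxel than normal TRAP by 3.05 (adjusted p = 0.0189), at 93.6 CPM, and was the 1 gene of this list to pass between treatments.

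Of 21 transporters and channels of other families, 7 were lower in normal TRAP, 1 was higher and 2 were lower after paclitaxel, and 2 were higher in paclitaxel than normal TRAP. Over all genes, 24.7% were lower in normal TRAP, 4.92% higher and 23% lower after paclitaxel, and 1.33% higher in paclitaxel than normal TRAP. The median changes in these 3 comparisons were -0.88, -0.38 and 0.80, beside -0.66, -0.56 and 0.17 for all genes. Smdt1 (EMRE), a subunit of the calcium uniporter, averaged 106 CPM in normal input, 53.1 in normal TRAP, 124 in paclitaxel input and 233 in paclitaxel TRAP. It was lower in normal TRAP by -0.88 (adjusted p = 0.012), higher in paclitaxel TRAP than input by 0.92 (adjusted p = 0.00937), and higher in paclitaxel than normal TRAP by 2.08 (adjusted p = 0.0102). The difference between treatments was 1.80 (adjusted p = 0.0311). Mcu, the pore of the same uniporter, was higher in paclitaxel than normal TRAP by 1.65 (adjusted p = 0.0363). Vdac2, a porin of the outer membrane, was lower in normal TRAP by -1.25 (adjusted p = 7.1e-05), and Tspo, an outer membrane protein, was higher in paclitaxel than normal input by 1.73 (adjusted p = 0.0335).

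Of 18 enzymes that make or use what the carriers move, 1 was higher and 8 lower in normal TRAP, and 1 higher and 9 lower after paclitaxel, with medians of -0.74 and -0.76. All genes had 5.09% higher and 24.7% lower, then 4.92% and 23%, with medians of -0.66 and -0.56. Mdh1, the cytosolic malate dehydrogenase of the malate-aspartate shuttle, was lower by -1.56 (adjusted p = 1.8e-05) and -1.02 (adjusted p = 0.00181). Oat, the ornithine aminotransferase, was lower by -2.24 (adjusted p = 0.000292) and -2.50 (adjusted p = 0.000155). Cpt1c, the neuronal carnitine palmitoyltransferase, was higher by 1.11 (adjusted p = 0.00719) and 1.17 (adjusted p = 0.00556).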

How the data were processed

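Libraries were QuantSeq 3′ end mRNA libraries of input and pulldown. Per the submitters' processing notes Bowtie2 2.2.9, TopHat2 2.1.1, Cufflinks 2.2.1 and FastQC 0.11.5 are named, without order, with genome build GRCm38.p4. Strand setting and molecular identifiers are not given in the sources used here. The deposited values are called TPM per the file headers but are CPM: 98.0% to 99.0% of non-zero values per library are whole multiples of 1 step (tolerance 0.0051 CPM), from which the reads per library were estimated, although a stricter check for whole reads did not pass for every library. Floors cover counting error only. The 2 merged columns were not used.

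Subsamples of biosample 7 were averaged. limma 3.58.1 (R 4.3.3, intensity trend) was fitted on log2(CPM + 1) over 14214 genes, and all p-values are two-sided. TRAP against input and the treatment difference used biosample as a fixed block, since both came from 1 extract. Deviations of the 2 libraries of a biosample correlated at 0.053 to 0.376, and highest with their own number in 7 of 8. The exception was biosample 1 (0.053, against 0.117 with another), and in biosample 7 the values were 0.168 and 0.164. Paclitaxel against normal was fitted within each fraction. The fits were also run on simulated data with changes planted only in genes well above the floor. That run does not cover scarce carriers, and nothing is read from it. The alternatives left out each biosample in turn or the replicate block, took each subsample alone, scaled by median ratios or quantiles, set the pseudocount to 0.1 or 5, and dropped the filter or raised it to 5 CPM.

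Values of all libraries are printed for 6 carriers chosen by role and for the 3 of lowest adjusted p per comparison and direction. Other members that passed have a log2 change, and up to 4 genes per list are named. Slc25a10, Slc25a11, Slc25a13 and Ucp1 were given more room after their values were seen. Of the tested carriers, 1 is counted but not reported here by name. The members and lists were chosen with earlier results of these data known.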

Additional observations from a re-analysis of the deposited data

Results flagged for a closer look

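Among the 11 carriers with all values printed, each of 4 groups was examined for 1 library far from the other 3, 44 groups in all. Chance flags about 1 in 20 such groups, and 4 were found. In normal TRAP, biosample 4 held 503.66 CPM of Slc25a51, above the other 3 libraries, and 1.67 CPM of Ucp2, where the others were at or under 0.2 CPM. In normal input, biosample 3 held 8.36 CPM of Slc25a43, which narrows the gap to the paclitaxel inputs. In paclitaxel TRAP, biosample 8 held 136.82 CPM of Slc25a39, set apart because the other 3 values lay within 143 to 144 CPM. The TRAP minus input change of Slc25a3 differed between treatments by 1.9978 (log2, paclitaxel minus normal, limma adjusted p = 0.0197). It was the 1 carrier for which that difference passed.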

How the results depend on the processing

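The 26 called carrier changes kept their direction in 464 repeats over the alternatives and their side of the threshold in 347. Slc25a3 in normal TRAP and Slc25a36, Slc25a37 and Slc25a51 in both pulldowns, with Slc25a40 after paclitaxel, passed under every alternative run. The cause of the other losses was not tested. Members called in normal TRAP numbered 13, and 8 with no filter, with quantile normalization or with subsample 1 of biosample 7, and 5 without biosamples 1, 2, 5 and 6, a setting chosen after seeing the data. The 1 call in paclitaxel against normal TRAP became 0 with no filter or without those 4 biosamples and 2 with a filter of 5 CPM in 4 libraries. The 1 call between inputs became 0 with no filter or without those 4. The 1 call for the treatment difference became 0 with a pseudocount of 0.1, no filter, quantile normalization, subsample 1, no replicate block or without those 4. The calls over all genes moved too, listed here in the same order of settings. In normal TRAP they went from 4233 to 3339, 2695, 2785 and 2393. Between the TRAP groups they went from 259 to 0, 0 and 729, and between inputs from 233 to 0 and 126. For the treatment difference they went from 27 to 13, 0, 6, 5, 0 and 9. With no replicate block (unpaired), the pulldown comparisons had 9 and 9 calls, and the adjusted p of the Slc25a3 difference was 0.591. Leaving out 1 biosample at a time gave 8 to 13 calls in normal TRAP, 7 to 11 in paclitaxel TRAP, 0 to 1 in paclitaxel against normal TRAP, 0 to 6 between inputs and 0 to 1 for the treatment difference. The 6 without biosample 2 were Slc25a3, Slc25a4, Slc25a5, Slc25a17, Slc25a38 and Slc25a43. In that run 831 of all genes passed between inputs, against 233 at the main settings, so the rise was not confined to carriers.

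Signs turned only among changes that had not passed. In TRAP minus input after paclitaxel, Slc25a3 was 0.23 and Slc25a4 0.27 with median-ratio scaling, Slc25a4 0.0554 without those 4 biosamples, and Slc25a12 -0.14 with subsample 2. Ucp2 was 0.49 and 0.36 in the 2 pulldown comparisons and -0.0224 between inputs with quantile normalization, and -0.29 between inputs and 0.0629 for the treatment difference without those 4. Slc25a22 was 0.0944 in paclitaxel against normal TRAP with subsample 2, and for the treatment difference -0.28 with subsample 1 and -0.42 without those 4, where Slc25a5 was 0.0749. Leaving out 1 biosample at a time gave, after paclitaxel, -0.23 to 0.058 for Slc25a3, -0.10 to 0.0012 for Slc25a4 and -0.12 to 0.28 for Slc25a12. Between the TRAP groups it gave -0.37 to 0.35 for Slc25a22, -0.0521 to 0.74 for Slc25a5 and -0.31 to 0.16 for Ucp2, and between inputs -0.0085 to 0.58 for Ucp2. For the treatment difference it gave -0.10 to 0.54 for Slc25a22 and -0.88 to 0.12 for Slc25a5.

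edgeR on whole reads was planned and not run, since the check for whole reads did not pass for every library. Depth limits carriers near 1 CPM, such as Ucp2, Ucp3, Slc25a18, Slc25a35, Slc25a47 and Slc25a48.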
